A study of Mus musculus with 10 samples.

Results

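Genes that mark microglia and macrophages were followed through RNA-seq libraries of regulatory T cells (Tregs), the Foxp3-expressing T cells that restrain immune responses. The 39 genes were listed by name, as genes known from these phagocytes, when earlier results of these data were already known. They are 39 of the 55141 gene IDs with a symbol in the deposited count table. For 37 of them counts could be placed in all 10 libraries. For Cd14 and Clec7a they could be placed only in the 6 libraries of co-cultured Tregs, and their spleen and brain values were not analysed here.

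The study asked whether Tregs with the features of brain Tregs can be made in culture. All libraries are labelled as Tregs of C57BL/6J mice, with 2 libraries in each of 5 groups. The study's methods take Tregs from adult mice with a Foxp3-hCD2 knock-in reporter, which puts human CD2 on Foxp3-expressing cells, and purify RNA from hCD2+ cells selected with magnetic beads. iB-Tregs were splenic Tregs cultured for 6 days on glial cells of neonatal mouse brain, which were mostly astrocytes by the study's methods after microglia had been shaken off. All iB-Tregs received antibodies to CD3 and CD28 (2 μg/ml each) and IL-2 (20 ng/ml), and iB-Tregs (A) received nothing else. The alarmin IL-33 (20 ng/ml) and serotonin (10 μM) were added for iB-Tregs (B). iB-Tregs (C) received the chemokines CCL1 and CCL20 (20 ng/ml each) on top of these. Ischemia-Tregs came from the brain 28 days after ischemic stroke. SP-Tregs came from the spleen of untreated mice. Whether both libraries of a group were made from separate mice or cultures is not stated in the sources used here. All p-values therefore measure only how far these libraries spread, and that spread may be technical.

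Microglia are the resident macrophages of the brain, and they and other macrophages depend on the transcription factor PU.1 and on signals through the CSF1 receptor. They take up dying cells and debris with scavenger and Fc receptors, digest them in lysosomes rich in cathepsins, and secrete the complement protein C1q and the lipid carrier apolipoprotein E. Near damage or plaques, microglia lower homeostatic genes such as P2ry12, Tmem119 and Cx3cr1 and raise genes such as Itgax, Clec7a, Gpnmb and Lgals3. Tregs are lymphocytes and are not known as a source of C1q or of most of these receptors.

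The 6 iB-Treg libraries held 15628261 to 16388161 counts and the 4 brain and spleen libraries 5186728 to 6634583. Mitochondrial ribosomal RNA took 0.128 to 0.178% of the placed counts in the iB-Treg libraries and 16.1 to 17.1% in those of brain and spleen. Every comparison of iB-Tregs with brain or spleen is therefore also a comparison between libraries of unlike depth and make-up. The part of that difference in the results was not tested. All levels are CPM values (counts relative to library size) scaled by the TMM method of edgeR, and 2 values in a row are the 2 libraries of a group (replicates 1 and 2 of iB-Tregs, Ischemia-4 and Ischemia-3, SP-9 and SP-10). Outside the first of 6 stretches of rows the spleen and brain counts stood 1 to 19 rows below their gene, and each value of these groups rests on sliding them back. At the slide used, the log2 counts of spleen and brain libraries correlated across genes with those of the iB-Treg libraries at r = 0.885 to 0.920, against at most 0.343 when slid by 1 row more or less. RNA of the Treg gene Foxp3 was present in all 10 libraries, which alone does not show that all selected cells were Tregs. Its log2 fold change of iB-Tregs (B) over SP-Tregs was -1.56 ± 0.06 (SE, edgeR adjusted p = 9.2e-13). Foxp3 had 241 and 246 CPM in iB-Tregs (C), 245 and 240.04 CPM in iB-Tregs (B), 296 and 295 CPM in iB-Tregs (A), 841 and 796 CPM in Ischemia-Tregs and 729 and 701 CPM in SP-Tregs.

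The co-cultured Tregs held far more RNA of microglia and macrophage genes than Tregs from the spleen. Summed over the 37 genes, the level was 20891 ± 898 CPM in iB-Tregs (C), 23466 ± 14.9 CPM in iB-Tregs (B), 12613 ± 612 CPM in iB-Tregs (A), 1394 ± 40.7 CPM in Ischemia-Tregs and 752 ± 49.1 CPM in SP-Tregs (SD, n = 2 each). The sum in iB-Tregs (B) was 31.2 times that in SP-Tregs, 16.8 times that in Ischemia-Tregs and 1.86 times that in iB-Tregs (A). Without Apoe and Lyz2, an alternative added after seeing the data, the first 2 ratios were 15.8 and 9.48, and with libraries scaled by their totals alone the ratio to Ischemia-Tregs was 26.8. In both libraries of each co-culture the sum lay above every library from mice. The 37 genes took 2.42% of the counts in iB-Tregs (C), 2.74% in (B), 1.53% in (A), 0.102% in Ischemia-Tregs and 0.0622% in SP-Tregs. Since these are bulk libraries, fewer cells of a type and less RNA per cell cannot be told apart, and whether the counts came from Tregs or from phagocytes among the selected cells was not tested.

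**Figure D1:**
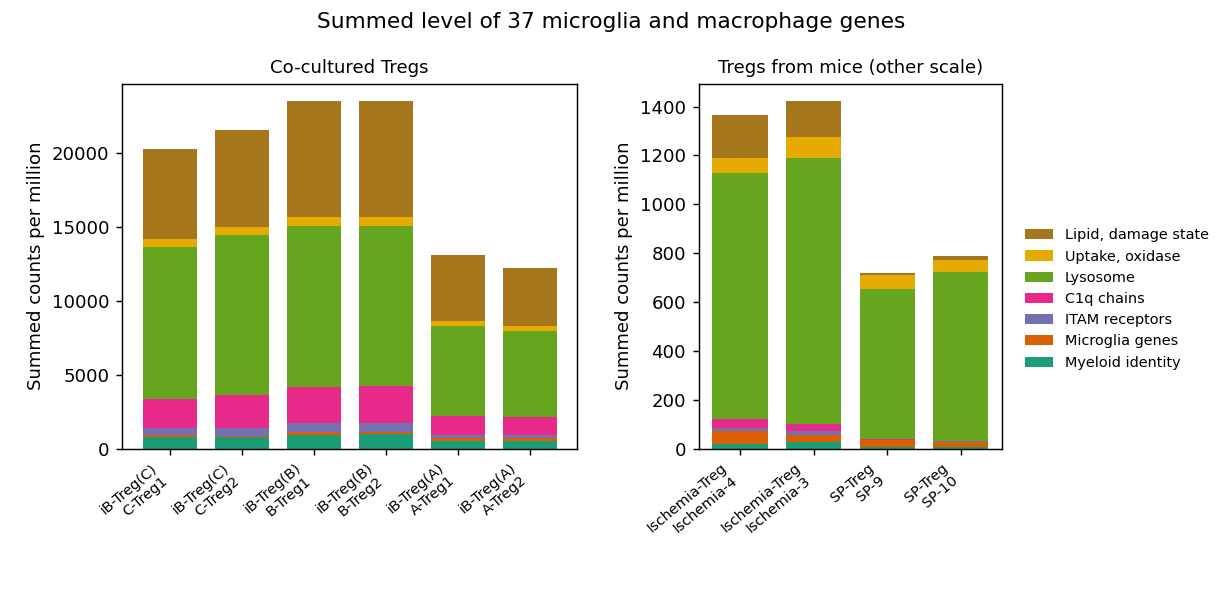
Summed level of the 37 genes in each library, in TMM-scaled CPM and stacked by role, for co-cultured Tregs (left panel) and, on a scale of its own, Tregs from mice (right panel). The bars of iB-Tregs (B) reach 23476 and 23455 CPM and those of SP-Tregs 717 and 787 CPM.

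The genes that made up the sum differed between the groups. Apoe, which encodes apolipoprotein E, and Lyz2, which encodes the lysozyme of macrophages and neutrophils, gave 26.8% and 21.3% of the sum in iB-Tregs (C), 30.5% and 19.3% in iB-Tregs (B) and 30.0% and 23.4% in iB-Tregs (A). In Ischemia-Tregs they gave 9.71% and 1.17%, and in SP-Tregs 0.818% and 0.0417%. The cathepsins Ctss, Ctsb and Ctsd, lysosomal proteases that many cell types make, gave 37.2%, 27.5% and 17.4% of the sum in SP-Tregs. Per kilobase of exon, Lyz2 and Apoe ranked 3 and 4 among 24994 gene IDs in iB-Tregs (B), against 11821 and 8376 in SP-Tregs.

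Against SP-Tregs, 33 of the 37 genes rose in iB-Tregs (B) and none was lower (edgeR quasi-likelihood test, Benjamini-Hochberg adjusted p under 0.05). Of all 13000 genes tested, 39.6% were called higher and 32.7% lower. At an unadjusted p under 0.05, 34 of the genes were higher and again none lower, and DESeq2 called 33 higher and none lower. The median log2 fold change of the 37 genes was 7.97, or 7.69 with count ratios or lower bounds in place of fitted values, against 0.125 over all genes. All 37 passed the low-count filter, 10 of them with no count and 6 with 1 to 3 counts in the SP-Treg libraries. They passed through the other groups, so these counts and medians describe the list and are no test of it. Sall1, Gpr34, Siglech and Cd163 did not pass. In iB-Tregs (C), 33 of 37 were higher than in SP-Tregs (39.3% of all genes) and none was lower (32.2% of all genes), with the same counts at an unadjusted p under 0.05 and by DESeq2, at a median of 7.65. In iB-Tregs (A), which received only the antibodies and IL-2, 34 of 37 were higher (40% of all genes) and Cd163 alone was lower (32.7% of all genes), at a median of 7.31. These 3 comparisons share the SP-Treg libraries.

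**Figure D2:**
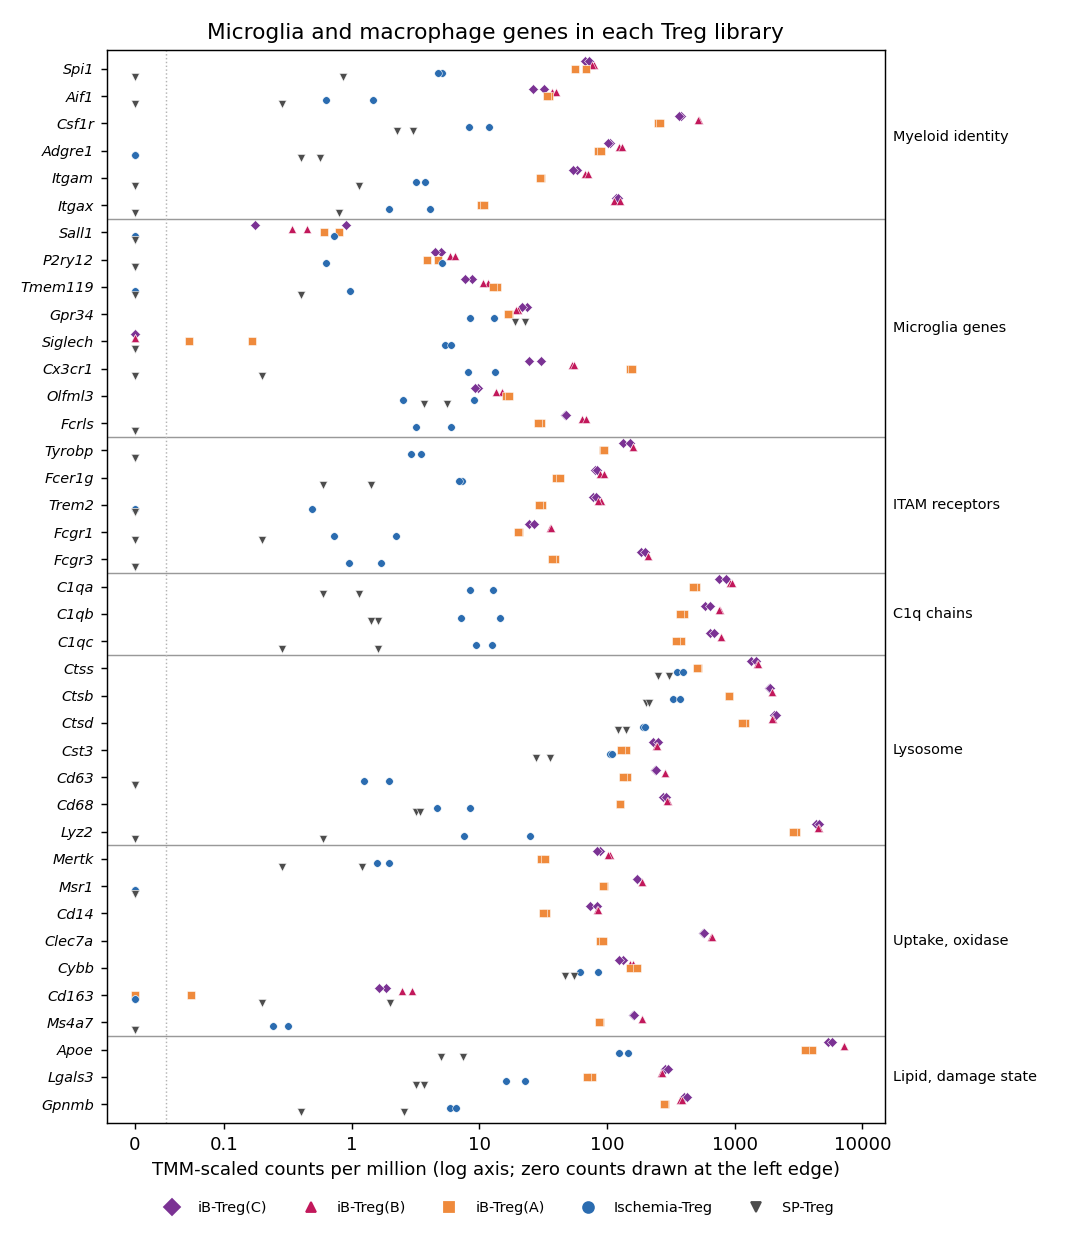
Level of each of the 39 genes in each library, in TMM-scaled CPM on a log axis, with zero counts at the left edge and genes grouped by role. Symbols are the libraries of the 5 groups, and for most genes the co-culture symbols lie far to the right of those of Ischemia-Tregs and SP-Tregs, with Gpr34, Siglech, Sall1, Cd163, P2ry12, Olfml3 and, in iB-Tregs (A), Ctss among the exceptions.

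Most of these genes were higher in Tregs of the ischemic brain than in those of the spleen, many of them at low levels. Ctss, Ctsb, Ctsd, Apoe and Cst3 were not low in Ischemia-Tregs, with means of 371, 350, 195, 135 and 107 CPM. Against SP-Tregs, 26 of 37 genes were higher in Ischemia-Tregs (20.4% of all genes) and Gpr34 alone was lower (18.3% of all genes). The median log2 fold change was 2.89, or 2.55 with ratios and bounds, against 0.000 over all genes. At an unadjusted p under 0.05, 27 genes were higher and 3 lower, and DESeq2 called 26 higher and 2 lower. Of the 37 genes, 18 had 3 counts or fewer in a group, so these counts and medians describe the list and are no test of it.

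Set against the ischemic brain, iB-Tregs (B) were higher in 34 of 37 genes (38.6% of all genes) and lower in Siglech alone (31% of all genes), at a median log2 fold change of 5.12, or 4.72 with ratios and bounds. iB-Tregs (C) and iB-Tregs (A) were each higher in 33 genes (38% and 38.9% of all genes) and lower in Siglech (30.8% and 31.1%), at medians of 4.71 and 3.87.

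With IL-33 and serotonin most of the genes were higher still. Of 38 genes tested in the 6 co-culture libraries, 31 rose in iB-Tregs (B) relative to iB-Tregs (A), where 15.6% of 14713 genes were called higher, and Cx3cr1 alone was lower (14.5% of all genes). The median log2 fold change was 0.99, with quartiles of 0.53 and 1.23, against -0.004 over all genes. Siglech did not pass the low-count filter here. In iB-Tregs (C) against (A), 30 of 38 were higher (18.2% of all genes) and Aif1, Tmem119, Cx3cr1, Olfml3 and Cybb were lower (16.6%), at a median of 0.77. Both comparisons share the iB-Treg (A) libraries.

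Adding CCL1 and CCL20 went with slightly lower levels. Of 38 genes, 17 were lower in iB-Tregs (C) than in (B), where 2.33% of all genes were called lower, at a median log2 fold change of -0.22 against 0.002 over all genes. None was higher (1.24% of all genes), with 2 higher and 26 lower at an unadjusted p under 0.05 and 17 lower and none higher by DESeq2. The count of calls rests on single libraries. It was 6 without replicate 1 of iB-Tregs (B), 7 without replicate 2 of iB-Tregs (B), 11 without replicate 1 of iB-Tregs (C), and 2 in the fit of all 10 libraries. Apoe, Csf1r, Cx3cr1, Fcgr1 and Fcrls were called whichever of the 6 libraries was left out, and of these Csf1r and Cx3cr1 were also called in the fit of all 10.

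**Figure D3:**
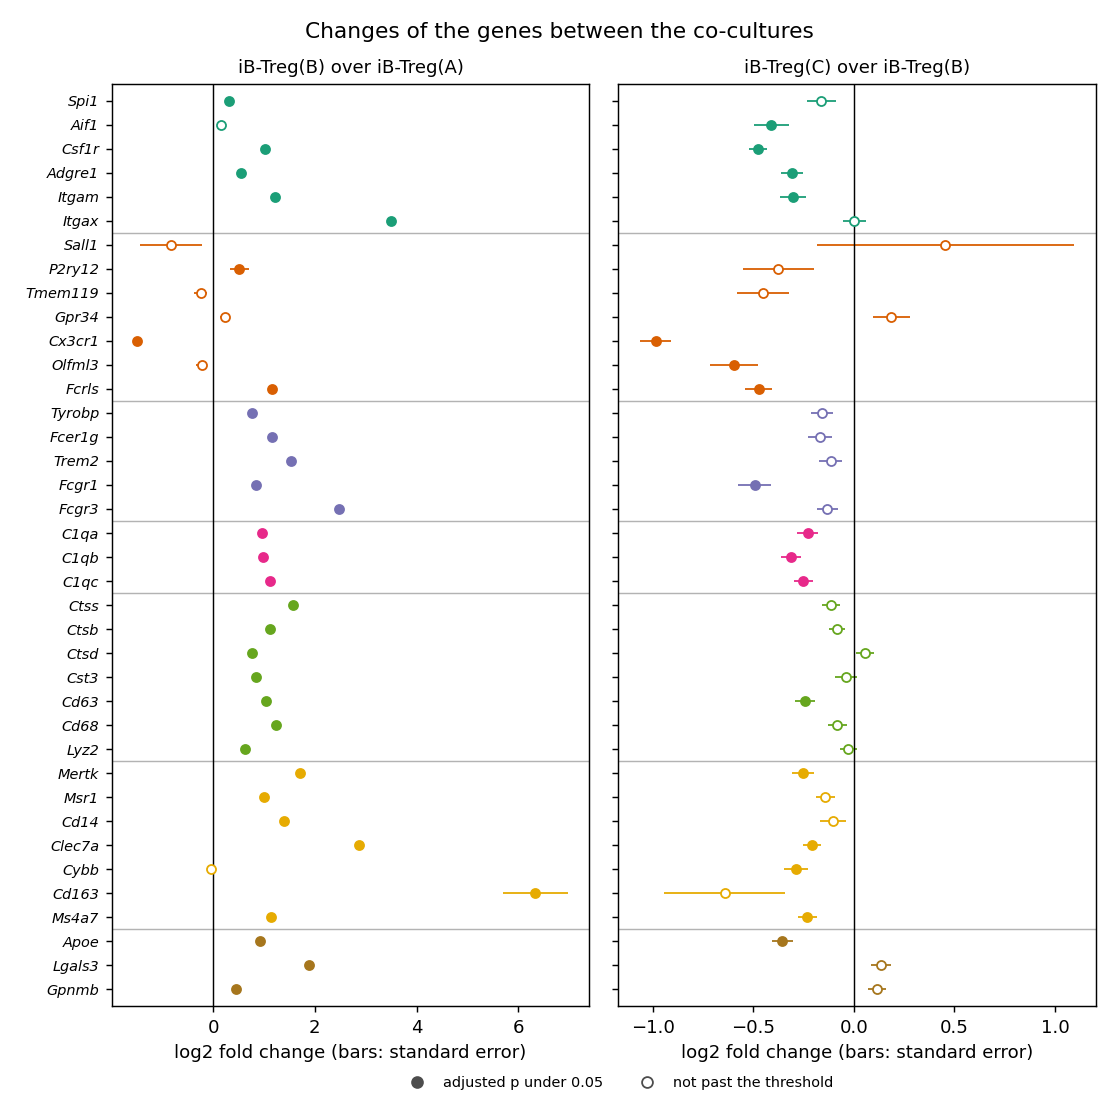
The log2 fold changes of 38 genes between co-cultures, iB-Treg (B) over (A) on the left and iB-Treg (C) over (B) on the right, with standard errors as bars, filled points where the edgeR adjusted p was under 0.05 and horizontal lines between roles (Siglech was not tested). Most points lie right of 0 on the left, with Cx3cr1 at -1.50, and left of 0 on the right, where the axis spans a smaller range.

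Among genes of myeloid identity, Csf1r, the receptor for CSF1 and IL-34 on which microglia depend for survival, had 382 and 369 CPM in iB-Tregs (C), 523 and 520.2 CPM in iB-Tregs (B), 253 and 261 CPM in iB-Tregs (A), 8.26 and 11.95 CPM in Ischemia-Tregs and 2.99 and 2.28 CPM in SP-Tregs. The groups did not overlap, and all stood in the order (B), (C), (A), ischemic brain, spleen. The log2 fold change of iB-Tregs (B) over SP-Tregs was 7.59 ± 0.14 (SE, edgeR adjusted p = 7.5e-17), that of Ischemia-Tregs over SP-Tregs 1.87 ± 0.29 (edgeR adjusted p = 9.9e-05), and that of (B) over (A) 1.03 ± 0.04 (edgeR adjusted p = 3.9e-14). Csf1r fell in iB-Tregs (C) relative to (B), by 0.48 on the log2 scale (SE 0.04, edgeR adjusted p = 8.1e-07).

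Spi1 encodes PU.1, the transcription factor that sets up the myeloid lineage. It had 67.3 and 71.7 CPM in iB-Tregs (C), 79.2 and 75.9 CPM in iB-Tregs (B), 68.5 and 56.4 CPM in iB-Tregs (A), 5.10 and 4.72 CPM in Ischemia-Tregs and 0 and 0.85 CPM in SP-Tregs. The 3 co-cultures lay close together and far above the mice. The counts were 2755 in iB-Tregs (B), against 3 in the spleen. This is a ratio of 221 per library size with a 95% counting interval of 75.4 to 1070.0. Against Ischemia-Tregs, Spi1 was higher in iB-Tregs (B) by 3.97 ± 0.22 on the log2 scale (edgeR adjusted p = 5.3e-11). Its difference between (B) and (A), 0.32 ± 0.07, passed in the fit of the co-cultures (edgeR adjusted p = 0.0019) and not in the fit of all 10 libraries (0.057).

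Itgax, which encodes the integrin CD11c of dendritic cells and of microglia near damage, split the co-cultures most widely in this group. It had 118 and 122 CPM in iB-Tregs (C), 113 and 126 CPM in iB-Tregs (B) and 10.3 and 10.9 CPM in iB-Tregs (A), with 1.94 and 4.09 CPM in Ischemia-Tregs and 0.80 and 0 CPM in SP-Tregs. Both co-cultures with IL-33 and serotonin lay above iB-Tregs (A), by 3.50 ± 0.08 on the log2 scale for (B) (edgeR adjusted p = 1.5e-19) and 3.51 ± 0.08 for (C) (edgeR adjusted p = 1.5e-19). iB-Tregs (C) and (B) overlapped.

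The other identity genes moved less between the co-cultures. Adgre1, an adhesion receptor used to mark macrophages, had 105 and 102.3 CPM in iB-Tregs (C), 125 and 131 CPM in (B) and 85.6 and 89.9 CPM in (A), no count in Ischemia-Tregs and 4 counts in SP-Tregs. A count of 0 over the Ischemia-Treg libraries allows up to 0.411 CPM, so Adgre1 was at least 311-fold higher in iB-Tregs (B). Itgam, the integrin chain CD11b, was higher in (B) than in (A) by 1.21 ± 0.07 on the log2 scale (edgeR adjusted p = 5.3e-12), and in Ischemia-Tregs it had 3.16 and 3.77 CPM against 0 and 1.14 CPM in SP-Tregs, a difference whose call was lost without SP-9 (edgeR adjusted p = 0.088). Aif1, which encodes the microglial protein IBA1, had 26.1 and 31.8 CPM in iB-Tregs (C), 37.3 and 39.5 CPM in (B) and 35.0 and 33.6 CPM in (A), and 1.46 and 0.63 CPM in Ischemia-Tregs against 0 and 0.28 CPM in SP-Tregs, where the difference did not pass (edgeR adjusted p = 0.061). The fall of Aif1 in (C) relative to (A), by 0.24 on the log2 scale (edgeR adjusted p = 0.036), was lost in DESeq2 (adjusted p = 0.11) and without replicate 1 of (A), replicate 2 of (B) or replicate 1 of (C).

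Genes that set microglia apart from other macrophages did not move as a block. Sall1, the transcription factor of microglial identity, was at or below 0.90 CPM in all 10 libraries. P2ry12, the ADP receptor of resting microglia, had 5.02 and 4.50 CPM in iB-Tregs (C), 5.89 and 6.45 CPM in iB-Tregs (B), 4.74 and 3.88 CPM in iB-Tregs (A), 5.10 and 0.63 CPM in Ischemia-Tregs and no count in SP-Tregs. P2ry12 thus stayed low in every group, and 1 Ischemia-Treg library overlapped the co-cultures. It was at least 17.5-fold above SP-Tregs in iB-Tregs (B) (edgeR adjusted p = 2.8e-05), and its call in Ischemia-Tregs over SP-Tregs ended without library Ischemia-4 (edgeR adjusted p = 0.097). Its call in (B) over (A), 0.52 ± 0.18 on the log2 scale (edgeR adjusted p = 0.031), was lost in DESeq2 (adjusted p = 0.16) and without replicate 2 of (A) or without either replicate of (B).

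Cx3cr1, the fractalkine receptor of microglia, ran against most of the other genes. It had 30.3 and 24.5 CPM in iB-Tregs (C), 53.4 and 55.0 CPM in iB-Tregs (B) and 150.3 and 157 CPM in iB-Tregs (A), against 13.4 and 8.18 CPM in Ischemia-Tregs and 0.20 and 0 CPM in SP-Tregs. The 3 co-cultures did not overlap, and iB-Tregs (A) were the highest of the 5 groups. Cx3cr1 fell in iB-Tregs (B) relative to (A) by 1.50 on the log2 scale (SE 0.07, edgeR adjusted p = 4.6e-14) and in (C) relative to (B) by 0.98 (SE 0.08, edgeR adjusted p = 2.4e-07). In Ischemia-Tregs it had 81 counts against 1 in SP-Tregs, a ratio of 94.7 (95% counting interval 16.5 to 3787).

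Siglech, a sialic acid-binding receptor of microglia and of plasmacytoid dendritic cells, was highest in the brain, above every library of the other groups. It had no count in iB-Tregs (C) and (B), 0.05 and 0.17 CPM in iB-Tregs (A), 5.35 and 5.98 CPM in Ischemia-Tregs and no count in SP-Tregs. It was at least 16.0-fold above the spleen in Ischemia-Tregs (edgeR adjusted p = 0.00035), and at least 66.5-fold lower in iB-Tregs (B) than in Ischemia-Tregs (edgeR adjusted p = 2.9e-06). Its row is the first of a realigned stretch, where the counts around it correlated with the iB-Treg counts at r = 0.75.

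Gpr34, a lysophosphatidylserine receptor, had 23.6 and 21.4 CPM in iB-Tregs (C), 20.0 and 19.5 CPM in iB-Tregs (B), 17.1 and 16.8 CPM in iB-Tregs (A), 13.1 and 8.49 CPM in Ischemia-Tregs and 22.9 and 19.1 CPM in SP-Tregs. The spleen libraries overlapped those of iB-Tregs (C) and (B) and lay above both libraries of iB-Tregs (A) and of the brain. Ischemia-Tregs were lower than SP-Tregs by 0.94 on the log2 scale (SE 0.22, edgeR adjusted p = 0.0034). The difference of iB-Tregs (B) from SP-Tregs was -0.10 ± 0.17 (edgeR adjusted p = 0.59), and it turned to 0.39 (edgeR adjusted p = 0.047) when libraries were scaled by their totals alone.

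Of the remaining microglia genes, Fcrls, an Fc receptor-like gene of mouse microglia, had 47.0 and 47.9 CPM in iB-Tregs (C), 63.4 and 68.1 CPM in iB-Tregs (B), 30.5 and 28.8 CPM in iB-Tregs (A), 3.16 and 5.98 CPM in Ischemia-Tregs and no count in SP-Tregs. It exceeded SP-Tregs at least 187-fold in iB-Tregs (B) and at least 12.5-fold in Ischemia-Tregs. Tmem119, a microglial surface protein that monocyte-derived macrophages largely lack, had 8.69 and 7.71 CPM in iB-Tregs (C), 11.7 and 10.7 CPM in (B) and 13.8 and 12.9 CPM in (A), against 0.97 and 0 CPM in Ischemia-Tregs and 0.40 and 0 CPM in SP-Tregs. Tmem119 was lower in (C) than in (A) by 0.70 on the log2 scale (SE 0.13, edgeR adjusted p = 0.00015). Olfml3, a secreted microglial protein, was likewise lower in (C) than in (A), with a log2 fold change of -0.82 ± 0.12 (edgeR adjusted p = 7.4e-06). Of the 7 microglia genes tested in the co-cultures, 2 were higher and 1 lower in (B) against (A), where 15.6% of all genes were higher and 14.5% lower, at a median log2 fold change of -0.22. All 5 receptor genes of the next group, all 3 C1q genes and all 7 lysosomal genes were higher.

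Receptors that signal through the ITAM motif, the tyrosine-based motif of activating immune receptors, were near 0 in the spleen. Tyrobp encodes the adaptor DAP12 and Trem2 its lipid-sensing partner. Tyrobp had 135 and 152 CPM in iB-Tregs (C), 160.4 and 159 CPM in iB-Tregs (B), 93.4 and 94.6 CPM in iB-Tregs (A), 2.92 and 3.46 CPM in Ischemia-Tregs and no count in SP-Tregs. Trem2 had 78.1 and 82.4 CPM in iB-Tregs (C), 89.0 and 84.5 CPM in iB-Tregs (B), 30.8 and 29.3 CPM in iB-Tregs (A), 0.49 and 0 CPM in Ischemia-Tregs and no count in SP-Tregs. Adaptor and partner thus differed in the brain, where Tyrobp was at least 8.96-fold above SP-Tregs and Trem2 had only 2 counts. Between (B) and (A), Trem2 changed by 1.53 ± 0.07 on the log2 scale (edgeR adjusted p = 2.2e-14) and Tyrobp by 0.77 ± 0.06 (edgeR adjusted p = 4.2e-10).

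The Fc receptors for IgG moved with them. Fcgr3, a low-affinity receptor, had 185 and 199.8 CPM in iB-Tregs (C), 210.3 and 209.9 CPM in iB-Tregs (B), 39.4 and 36.7 CPM in iB-Tregs (A), 1.70 and 0.94 CPM in Ischemia-Tregs and no count in SP-Tregs. iB-Tregs (A) stood well below the other co-cultures, and (B) exceeded (A) by 2.47 ± 0.06 on the log2 scale (edgeR adjusted p = 6.1e-19). Fcgr3 belongs to a family of similar genes, and how reads shared among them were counted is not given in the sources used here. Fcgr1, the high-affinity receptor, had 24.5 and 26.8 CPM in iB-Tregs (C), 35.5 and 36.5 CPM in (B) and 20.3 and 20.1 CPM in (A). Fcer1g, the signalling chain that both receptors share, had 80.7 and 83.2 CPM in (C), 88.6 and 94.96 CPM in (B) and 39.6 and 42.6 CPM in (A). In Ischemia-Tregs Fcer1g had 7.29 and 6.92 CPM, against 0.60 and 1.42 CPM in SP-Tregs, which was 2.91 ± 0.43 higher on the log2 scale (edgeR adjusted p = 5.3e-05).

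C1q is the recognition protein of the classical complement pathway and is built from chains encoded by C1qa, C1qb and C1qc, which lie side by side on chromosome 4 (GRCm38). C1qa had 754 and 854 CPM in iB-Tregs (C), 925 and 955 CPM in iB-Tregs (B), 494 and 471 CPM in iB-Tregs (A), 8.51 and 12.9 CPM in Ischemia-Tregs and 0.60 and 1.14 CPM in SP-Tregs. C1qb had 584 and 637 CPM in iB-Tregs (C), 765 and 747 CPM in iB-Tregs (B), 400.1 and 371 CPM in iB-Tregs (A), 14.6 and 7.23 CPM in Ischemia-Tregs and 1.60 and 1.42 CPM in SP-Tregs. C1qc had 638 and 686 CPM in iB-Tregs (C), 785 and 786 CPM in iB-Tregs (B), 380 and 348 CPM in iB-Tregs (A), 12.6 and 9.44 CPM in Ischemia-Tregs and 1.60 and 0.28 CPM in SP-Tregs. For each chain the groups did not overlap and had the same order, with (B) the highest co-culture and the spleen lowest. Per kilobase of exon in iB-Tregs (B), C1qa had a level of 904 CPM, C1qb 695 CPM and C1qc 407 CPM.

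The C1q genes changed together in size as well. iB-Tregs (B) exceeded SP-Tregs by 10.14 ± 0.18 on the log2 scale for C1qa, 8.94 ± 0.19 for C1qb and 9.53 ± 0.18 for C1qc (edgeR adjusted p = 6.6e-17, 2.3e-16 and 9.9e-17). In Ischemia-Tregs the chains had 76, 83 and 82 counts in all, against 7, 13 and 9 in SP-Tregs, with log2 fold changes of 3.65, 2.89 and 3.40. Between (B) and (A) the log2 fold changes were 0.97, 0.98 and 1.12. All 3 were lower in iB-Tregs (C) than in (B), by 0.23, 0.31 and 0.25, and each of these calls was lost without at least 1 library. C1qb lost its call without replicate 1 of (B) (edgeR adjusted p = 0.059), and C1qa and C1qc also without replicate 2 of (B) (0.29 and 0.13) or replicate 1 of (C) (0.2 and 0.065).

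The start regions of 4 of these genes are printed because their levels turn on the co-cultures. C1qb and C1qc are neighbours that moved together, and C1qa, which moved with both, is not printed. Fcgr3 and Clec7a are the receptors that rose most with IL-33 and serotonin after Itgax and Cd163. Each printed region is 300 bases of RefSeq GRCm38.p6, from 250 bases before the annotated start to 50 after it, on the minus strand and 5′ to 3′. Capitals mark a match to GAGGAA or its reverse TTCCTC, the core letters of the PU.1 binding motif, or, in C1qc, to the longer GAGGAAGT or its reverse ACTTCCTC, which contains the shorter one. The windows are chr4:136886151-136886450 for C1qb, chr4:136892865-136893164 for C1qc, chr1:171059354-171059653 for Fcgr3 and chr6:129472730-129473029 for Clec7a. Fcgr3 and Clec7a each have 2 RefSeq windows, and a window with a match was printed ahead of one without. The matches marked in these 2 genes may therefore follow from that choice, and their other windows are not shown. The printed Fcgr3 window lies inside that gene as GENCODE vM21 annotates it (chr1:171051174-171064935, minus strand), not at its outer 5′ end.
C1qb: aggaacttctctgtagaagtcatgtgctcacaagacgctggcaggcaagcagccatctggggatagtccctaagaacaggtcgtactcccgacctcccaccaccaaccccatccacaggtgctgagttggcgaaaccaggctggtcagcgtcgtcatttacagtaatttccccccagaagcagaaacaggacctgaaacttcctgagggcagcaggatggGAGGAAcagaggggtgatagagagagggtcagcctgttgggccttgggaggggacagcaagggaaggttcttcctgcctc
C1qc: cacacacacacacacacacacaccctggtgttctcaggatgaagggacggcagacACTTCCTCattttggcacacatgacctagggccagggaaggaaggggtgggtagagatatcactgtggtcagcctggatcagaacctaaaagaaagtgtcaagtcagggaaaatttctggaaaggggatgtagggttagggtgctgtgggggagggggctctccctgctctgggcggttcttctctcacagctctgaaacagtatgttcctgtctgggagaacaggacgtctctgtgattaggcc
Fcgr3: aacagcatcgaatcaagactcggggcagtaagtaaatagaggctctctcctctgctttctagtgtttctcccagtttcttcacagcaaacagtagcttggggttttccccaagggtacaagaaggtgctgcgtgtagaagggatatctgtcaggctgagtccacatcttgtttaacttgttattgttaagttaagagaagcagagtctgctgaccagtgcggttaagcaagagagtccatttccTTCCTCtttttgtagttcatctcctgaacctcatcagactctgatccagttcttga
Clec7a: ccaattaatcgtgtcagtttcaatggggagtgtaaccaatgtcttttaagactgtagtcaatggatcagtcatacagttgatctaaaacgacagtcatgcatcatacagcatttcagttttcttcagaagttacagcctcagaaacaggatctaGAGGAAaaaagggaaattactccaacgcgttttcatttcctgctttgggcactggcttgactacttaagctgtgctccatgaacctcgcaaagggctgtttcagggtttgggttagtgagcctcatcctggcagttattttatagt
The matches begin 30 bases before the start of C1qb, 195 before that of C1qc, 6 before that of Fcgr3 and 96 before that of Clec7a. Of the 39 genes, 29 had a window in the RefSeq table. On either strand, GAGGAA lay in the windows of 17 of the 29 (58.6%) and of 8446 of all 27025 genes in the table (31.3%), and GAGGAAGT in 2 of the 29 (6.9%) and 997 of all (3.69%), with a gene counted when any of its windows held the letters. All 4 printed windows hold a match, and C1qa was not among the 17 genes counted with one. The printed windows therefore do not represent the list. A match is a description of the letters and not a site or a cause.

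All 7 lysosomal genes were higher than in SP-Tregs in each co-culture (39.3 to 40% of all genes) and in Ischemia-Tregs (20.4% of all genes). The call of Cd68 in Ischemia-Tregs was lost with some single libraries left out. Ctss, the cathepsin that trims the invariant chain of MHC class II, had 1345 and 1463 CPM in iB-Tregs (C), 1493 and 1536 CPM in iB-Tregs (B), 514 and 502 CPM in iB-Tregs (A), 351 and 391 CPM in Ischemia-Tregs and 253 and 309 CPM in SP-Tregs. Unlike the receptors, Ctss was well expressed in every library, and it was the gene with the highest level per kilobase of the list in SP-Tregs, 207 CPM. Its log2 fold change over SP-Tregs was 2.44 ± 0.09 in (B) (edgeR adjusted p = 1.9e-13), 0.86 ± 0.08 in (A) (edgeR adjusted p = 9.8e-08) and 0.41 ± 0.09 in Ischemia-Tregs (edgeR adjusted p = 0.0017).

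Ctsb and Ctsd, cathepsins of general lysosomal digestion, behaved alike. Ctsb had 1843 and 1879 CPM in iB-Tregs (C), 1972 and 1965 CPM in iB-Tregs (B), 909 and 898 CPM in iB-Tregs (A), 328 and 371 CPM in Ischemia-Tregs and 201 and 212 CPM in SP-Tregs. Ctsd had 2041 and 2113 CPM in iB-Tregs (C), 2009.5 and 1975 CPM in iB-Tregs (B), 1215 and 1131 CPM in iB-Tregs (A), 192 and 198 CPM in Ischemia-Tregs and 122 and 139.6 CPM in SP-Tregs. Neither gene had overlapping groups. (B) was the highest group for Ctsb and (C) for Ctsd, where the difference between (C) and (B) did not pass, at 0.06 ± 0.04 on the log2 scale (edgeR adjusted p = 0.62). Cst3, the secreted cathepsin inhibitor cystatin C, which astrocytes also make, was above the spleen level in Ischemia-Tregs by 1.73 ± 0.12 (edgeR adjusted p = 8.4e-09), with 105 and 109.8 CPM against 35.5 and 27.9 CPM.

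Lyz2 had 4307 and 4594 CPM in iB-Tregs (C), 4552 and 4497 CPM in iB-Tregs (B), 3018 and 2873 CPM in iB-Tregs (A), 24.8 and 7.55 CPM in Ischemia-Tregs and 0.60 and 0 CPM in SP-Tregs. Among the 7 lysosomal genes of the 39, Lyz2 was by far the most abundant in the co-cultures, and it had 3 counts in all in the spleen. The ratio of iB-Tregs (B) to SP-Tregs was 12862 (95% counting interval 4401 to 62371), and (B) exceeded (A) by 0.62 ± 0.04 on the log2 scale (edgeR adjusted p = 1.8e-10). Lyz2 has a near-identical neighbour, Lyz1, so part of its reads may be split between them.

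Cd68 and Cd63 are membrane proteins of the late endosome and lysosome. Cd68, largely a macrophage gene, had 275 and 289 CPM in iB-Tregs (C), 298 and 297 CPM in iB-Tregs (B), 127 and 127 CPM in iB-Tregs (A), 4.62 and 8.49 CPM in Ischemia-Tregs and 3.19 and 3.41 CPM in SP-Tregs. Its call in Ischemia-Tregs, 0.94 ± 0.33 on the log2 scale (edgeR adjusted p = 0.034), was lost without SP-9 (0.16), without SP-10 (0.072) and without Ischemia-3 (0.38). Cd63 had 236 and 243 CPM in (C), 283 and 283 CPM in (B), 144 and 133 CPM in (A), 1.94 and 1.26 CPM in Ischemia-Tregs and no count in SP-Tregs. Cd63 is made by many cell types, and whether its absence in the spleen libraries is technical was not tested.

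Few or no counts in the mice were common among these genes. Of 31 genes with at least 10 CPM in every iB-Treg library, 4 (12.9%) had 3 counts or fewer over the Ischemia-Treg libraries and 12 (38.7%) over the SP-Treg libraries. Of all 8411 gene IDs at that level, 104 (1.24%) had as few over the Ischemia-Treg libraries and 174 (2.07%) over the SP-Treg libraries. The genes were listed with earlier results known and kept here for their level in the co-cultures. These shares therefore describe the list and are no test of it. A count of 0 over both libraries allows a level of up to 0.352 CPM in SP-Tregs.

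Uptake receptors and the phagocyte oxidase came next. Msr1, the class A scavenger receptor, had 171 and 170.5 CPM in iB-Tregs (C), 187 and 189 CPM in iB-Tregs (B) and 94.5 and 92.8 CPM in iB-Tregs (A), and no count in any of the 4 libraries from mice. It was at least 457-fold higher in iB-Tregs (B) than in Ischemia-Tregs and at least 534-fold above SP-Tregs. Ms4a7, a gene of macrophages and of border-associated macrophages in the brain, had 160.3 and 163 CPM in (C), 189 and 189.5 CPM in (B), 87.5 and 86.0 CPM in (A), 1 count in each Ischemia-Treg library and none in SP-Tregs. Both genes thus separated culture from brain and spleen alike.

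Mertk, the receptor with which macrophages take up dying cells, had 88.9 and 84.0 CPM in iB-Tregs (C), 105 and 101 CPM in iB-Tregs (B), 30.6 and 32.5 CPM in iB-Tregs (A), 1.94 and 1.57 CPM in Ischemia-Tregs and 1.20 and 0.28 CPM in SP-Tregs. (B) exceeded (A) by 1.71 ± 0.06 on the log2 scale (edgeR adjusted p = 1.6e-15). The difference between brain and spleen, 1.11 ± 0.64, did not pass (edgeR adjusted p = 0.19).

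Clec7a, which encodes the glucan receptor dectin-1, and Cd14, the co-receptor for bacterial lipopolysaccharide, have values only in the co-cultures. Clec7a had 564 and 575 CPM in iB-Tregs (C), 653 and 659 CPM in iB-Tregs (B) and 87.4 and 92.9 CPM in iB-Tregs (A). Cd14 had 73.6 and 83.4 CPM in (C), 83.0 and 85.3 CPM in (B) and 33.1 and 31.4 CPM in (A). Both were higher with IL-33 and serotonin, Clec7a by 2.87 ± 0.05 (edgeR adjusted p = 1.9e-21) and Cd14 by 1.39 ± 0.07 (edgeR adjusted p = 4.1e-13) in (B) over (A) on the log2 scale. Beside Itgax and Fcgr3, Clec7a was thus among the genes that differed most between these co-cultures.

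Cybb and Cd163 stood apart from the other uptake genes. Cybb, the catalytic chain of the phagocyte NADPH oxidase, had 133 and 123 CPM in iB-Tregs (C), 152 and 160.2 CPM in iB-Tregs (B), 150.0 and 170.3 CPM in iB-Tregs (A), 61.7 and 85.5 CPM in Ischemia-Tregs and 54.7 and 46.9 CPM in SP-Tregs. It was present in the spleen at a level that most of the receptors did not reach, and it did not pass between (B) and (A) (-0.03 ± 0.06 on the log2 scale, edgeR adjusted p = 0.73). Its rise in Ischemia-Tregs, 0.51 ± 0.15 (edgeR adjusted p = 0.012), was lost without SP-10 (0.075) or Ischemia-3 (0.15). Cd163, the haemoglobin scavenger receptor, had 1.86 and 1.64 CPM in (C), 2.97 and 2.49 CPM in (B), 0 and 0.06 CPM in (A), none in Ischemia-Tregs and 0.20 and 1.99 CPM in SP-Tregs. Its 97 counts in (B) against 1 in (A) give a ratio of 101 (95% counting interval 17.6 to 4014). Its fall in (A) relative to SP-Tregs, 1 count against 8, was lost without library SP-10 (edgeR adjusted p = 0.31).

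Genes of lipid handling and of the damage-associated state were higher in all 4 groups than in SP-Tregs. Apoe had 5379.6 and 5839.9 CPM in iB-Tregs (C), 7179.8 and 7148 CPM in iB-Tregs (B), 4042 and 3527 CPM in iB-Tregs (A), 145 and 125 CPM in Ischemia-Tregs and 4.99 and 7.39 CPM in SP-Tregs. The groups did not overlap. Apoe, which astrocytes also make, was higher than in SP-Tregs by 10.22 ± 0.14 on the log2 scale in iB-Tregs (B) (edgeR adjusted p = 2.5e-18) and by 4.50 ± 0.17 in Ischemia-Tregs (edgeR adjusted p = 1.8e-12). It fell in (C) relative to (B) by 0.36 (SE 0.05, edgeR adjusted p = 0.0004).

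Lgals3, which encodes galectin-3, and Gpnmb, a transmembrane glycoprotein of lipid-laden macrophages, rose with Apoe in Ischemia-Tregs. Lgals3 had 285 and 302 CPM in iB-Tregs (C), 263 and 272 CPM in iB-Tregs (B), 75.7 and 69.4 CPM in iB-Tregs (A), 22.8 and 16.0 CPM in Ischemia-Tregs and 3.19 and 3.70 CPM in SP-Tregs. Gpnmb had 402 and 423 CPM in iB-Tregs (C), 376 and 383 CPM in iB-Tregs (B), 283 and 277 CPM in iB-Tregs (A), 5.83 and 6.60 CPM in Ischemia-Tregs and 0.40 and 2.56 CPM in SP-Tregs. Both (C) libraries lay above both (B) libraries for each gene, by differences that did not pass (0.13 ± 0.05 and 0.12 ± 0.05 on the log2 scale, edgeR adjusted p = 0.17 and 0.19). Between (B) and (A) Lgals3 changed by 1.88 ± 0.05 (edgeR adjusted p = 2.3e-17) and Gpnmb by 0.44 ± 0.05 (edgeR adjusted p = 8.9e-08).

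**Figure D4:**
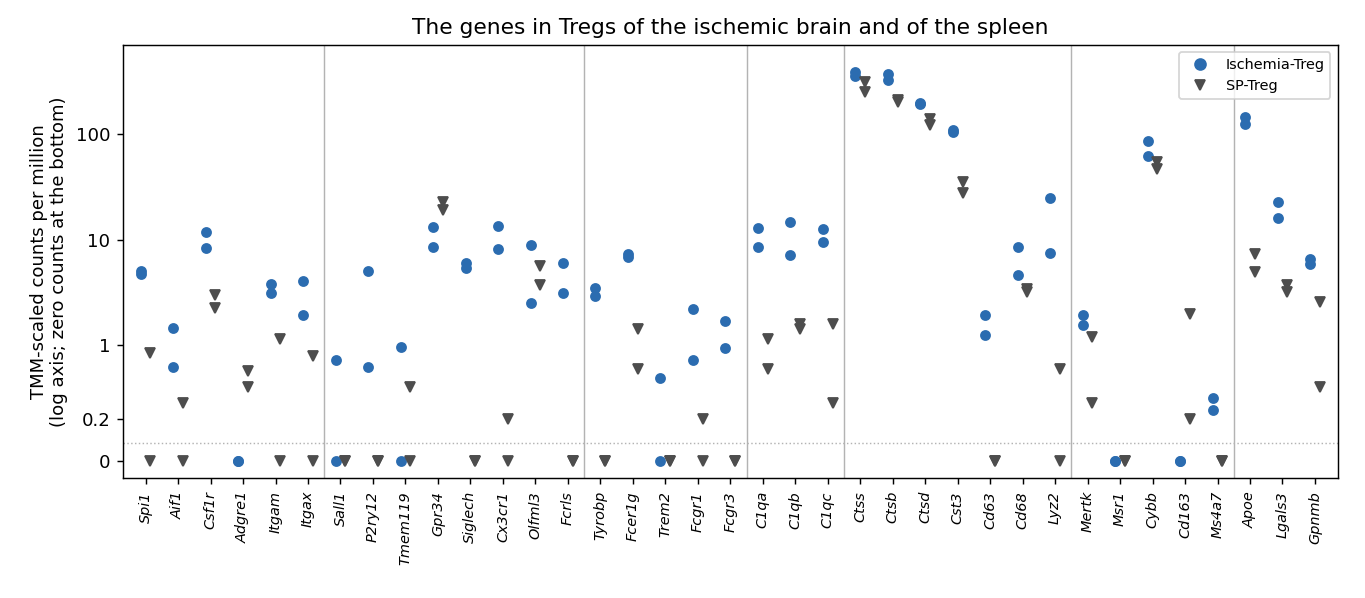
Level of the 37 genes in the 2 Ischemia-Treg and the 2 SP-Treg libraries, in TMM-scaled CPM on a log axis with zero counts at the bottom and vertical lines between roles. Apoe, Siglech, Fcrls and Tyrobp have both brain libraries above both spleen libraries, Gpr34 has both below, and Msr1 is at 0 in all 4.

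Further genes of the same cells and pathways were counted from lists. Of 37 further microglia and macrophage genes tested, 33 rose and 1 fell in iB-Tregs (B) relative to SP-Tregs (39.6% and 32.7% of all genes), and 18 rose and 2 fell in Ischemia-Tregs (20.4% and 18.3% of all genes). Spp1, which encodes osteopontin, had 1252 and 1333 CPM in iB-Tregs (C), 950.2 and 968 CPM in iB-Tregs (B), 144 and 150.2 CPM in iB-Tregs (A), 20.9 and 15.7 CPM in Ischemia-Tregs and no count in SP-Tregs. It rose with each addition, by 2.71 ± 0.05 on the log2 scale in (B) over (A) (edgeR adjusted p = 3.5e-21) and by 0.43 ± 0.04 in (C) over (B) (edgeR adjusted p = 4.1e-06). Of 7 border-associated macrophage genes tested, 6 rose and 1 fell in the comparison of iB-Tregs (B) with SP-Tregs, against the same 39.6% and 32.7% of all genes. The gene that fell was F13a1, with 0.06 and 0 CPM in (B) against 2.19 and 1.71 CPM in SP-Tregs. Folr2 and Timd4 stayed low in (B), at 3.87 and 3.62 CPM and at 2.24 and 2.15 CPM. Lyve1 (0.11 and 0 CPM in (B)) and Cbr2 (0.34 and 0.45 CPM) were too low to be tested. Pf4, which encodes a platelet and macrophage chemokine, was at least 489-fold and the scavenger receptor Marco at least 138-fold above the spleen, where neither had a count. Mrc1, the mannose receptor, was named after its values were seen, and it had 643 and 646 CPM in (B), 55.5 and 58.7 CPM in (A) and 1.60 and 1.71 CPM in SP-Tregs. Of 28 lysosomal genes, 25 rose and none fell in that comparison (39.6% and 32.7% of all genes). The log2 fold changes of Ctsl, Ctsh and Lgmn, which encode cathepsin L, cathepsin H and legumain, were 8.09, 6.96 and 5.55.

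The ligands of the CSF1 receptor did not follow it, although 10 of 15 tested genes of its list of ligands and partners rose and 3 fell in iB-Tregs (B) relative to the spleen (39.6% and 32.7% of all genes). Csf1 had 50.8 and 48.8 CPM in iB-Tregs (C), 43.2 and 39.4 CPM in iB-Tregs (B), 30.98 and 36.4 CPM in iB-Tregs (A), 37.9 and 45.3 CPM in Ischemia-Tregs and 35.5 and 33.6 CPM in SP-Tregs. Its difference over SP-Tregs in iB-Tregs (B), 0.25 ± 0.13 on the log2 scale, did not pass (edgeR adjusted p = 0.088), while (B) exceeded (A) by 0.30 ± 0.08 (edgeR adjusted p = 0.0065). Il34, the other ligand, had at most 0.11 CPM in any library.

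Markers of other cell types moved with these genes to different degrees. The 14 T cell and Treg markers summed to 5759 and 5929 CPM in iB-Tregs (C), 5700.2 and 5638 CPM in iB-Tregs (B), 6219 and 6232 CPM in iB-Tregs (A), 8428 and 8918 CPM in Ischemia-Tregs and 6751 and 6841 CPM in SP-Tregs. The 15 astrocyte markers summed to 63.2 and 65.7 CPM in iB-Tregs (C), 75.2 and 73.5 CPM in iB-Tregs (B), 77.9 and 72.4 CPM in iB-Tregs (A), 15.8 and 26.4 CPM in Ischemia-Tregs and 22.3 and 20.8 CPM in SP-Tregs. Gjb6 had no count in any co-culture, and 8 of the 15 had none in Ischemia-Tregs and 9 none in SP-Tregs. Within the T cell list all 14 genes passed in iB-Tregs (B) against SP-Tregs, 5 higher (39.6% of all genes) and 9 lower (32.7% of all genes). The log2 fold changes were 0.61 for Il2ra, -0.26 for Cd2 and -2.11 for Ikzf2. Unlike the phagocyte genes, the astrocyte sum was about as high in (A) as in (B). Much of that sum was Ndrg2, with 24.2 and 22.3 CPM in (B) against 11.8 and 14.8 CPM in SP-Tregs. Aldoc followed, with 16.5 and 15.9 CPM against 6.18 and 4.55 CPM. Of 11 astrocyte markers tested in (B) against SP-Tregs, 9 were higher (39.6% of all genes) and none lower (32.7%), at a median log2 fold change of 4.74.

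Markers of other myeloid cells and of B cells were lower in sum than the 37 phagocyte genes in the co-cultures. The marker lists are much shorter, so these sums do not compare levels gene by gene. The 4 monocyte markers summed to 169 and 168 CPM in iB-Tregs (C), 122 and 120.3 CPM in iB-Tregs (B), 13.5 and 14.6 CPM in iB-Tregs (A), 185 and 177 CPM in Ischemia-Tregs and 40.1 and 56.3 CPM in SP-Tregs, with Chil3 making up most of it in (C) and (B) and Ccr2 in the mice. The 7 neutrophil markers summed to 15.3 and 13.9 CPM in iB-Tregs (C), 21.1 and 19.5 CPM in iB-Tregs (B) and 46.8 and 44.9 CPM in iB-Tregs (A), nearly all of it Ltf, and S100a9 and Elane had no count in any co-culture. The 5 dendritic cell markers summed to at most 6.45 CPM in a co-culture, 34.8 and 40.6 CPM in Ischemia-Tregs and 1.80 and 0.57 CPM in SP-Tregs. Ccr2 had 175 and 156 CPM in Ischemia-Tregs, against 37.1 and 55.5 CPM in SP-Tregs, and activated Tregs can express it as well. The 5 B cell markers summed to 2.75 to 3.53 CPM in the co-cultures, 46.9 and 47.8 CPM in Ischemia-Tregs and 47.7 and 55.7 CPM in SP-Tregs. The part of any of these cells in the levels of the phagocyte genes was not tested.

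**Figure D5:**
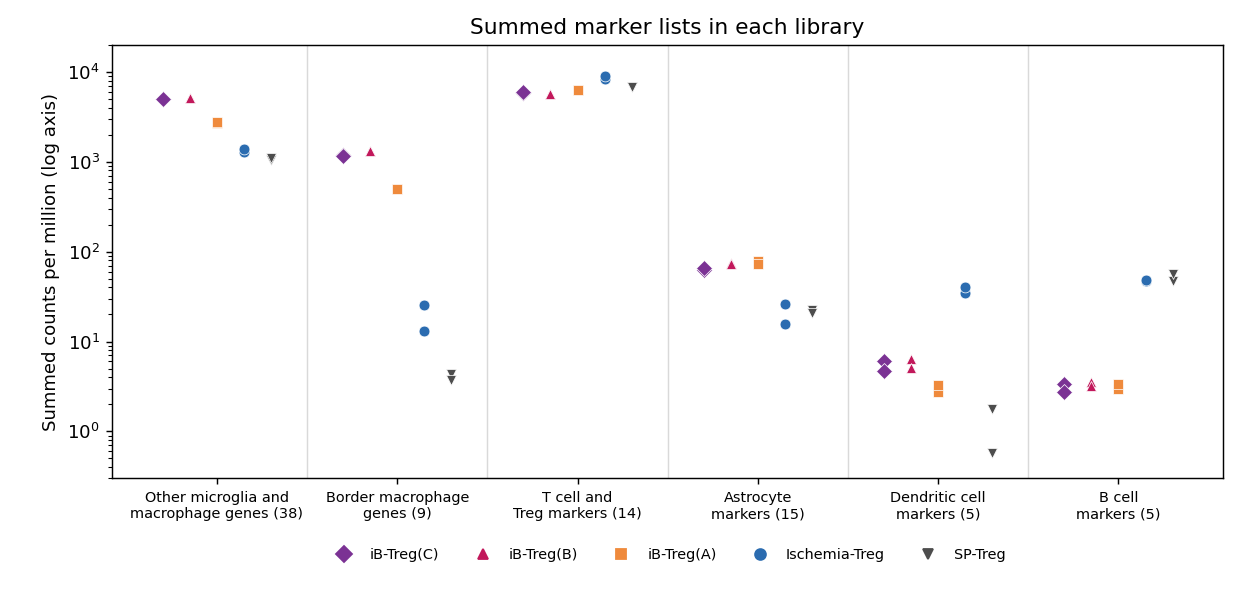
Summed level of 6 marker lists in each library, in TMM-scaled CPM on a log axis, with the number of genes of each list in brackets. The macrophage lists are highest in the co-cultures, the sum of T cell and Treg markers, whose members went both ways, spans 5638 to 8918 CPM, and dendritic cell markers are highest in Ischemia-Tregs.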

How the data were processed

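The study's methods describe poly(A) RNA of bead-selected Tregs and a stranded kit, without naming groups. Raw counts per gene for 10 libraries were deposited in 1 table, with gene IDs of GENCODE vM21 on GRCm38. HTSeq 0.6.1 and HISAT2 2.0.1 are listed in the submitters' processing notes, whereas the study's methods name another HISAT2 version and featureCounts, and which of them made the deposited counts is not stated. The deposited spleen and brain counts stand beside the wrong gene ID over most of the table. They were slid back in 6 stretches of rows found by correlation with the iB-Treg columns, which keeps 24994 of 55401 gene IDs. The other 30407 IDs and 172 rows with no gene ID were left out of spleen and brain values. Replicate numbers of those columns were not matched to single samples, so they are called by their column names, SP-9 and SP-10 or Ischemia-4 and Ischemia-3. For leaving out libraries, SP-9 and Ischemia-4 count as replicate 1.

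Comparisons with spleen or brain used all 10 libraries and 13000 genes past the low-count filter, and comparisons among iB-Tregs used their 6 libraries and 14713 genes. Tests were edgeR 4.0.16 quasi-likelihood tests with TMM scaling and Benjamini-Hochberg adjustment over all genes tested in R 4.3.3, checked on simulated data, with DESeq2 1.42.0 as an alternative. Tables and figures were made with Python 3.11.15, pandas 2.3.3 and matplotlib 3.10.9. Levels are CPM on the TMM scale of all 10 libraries, and levels per kilobase divide by exon length. Where a group had no count, the other group was set against 3 counts over that group, and with 1 to 3 counts the count ratio is given with its exact binomial 95% interval, which covers counting error only. Libraries of a group differed by more than sampling noise, so none was counted as a duplicate. The genes and lists were chosen with earlier results of these data known. All 39 genes are accounted for. From each further list of microglia, macrophage, lysosomal and ligand genes, up to 3 genes with the largest change of iB-Tregs (B) over SP-Tregs could be named, from each list of other cell types up to 3 of the highest mean level, and Csf1 and Il34 in any case. Alternatives changed the tool, the scaling, the filter on low counts, which libraries and genes were fitted, the replicate block and the genes summed.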

Additional observations from a re-analysis of the deposited data

How the results depend on the processing

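Of 5708 fold changes of single genes under the alternatives, 5577 kept their direction and their side of the threshold, 86 lost and 44 gained a call, and 1 reversed. That was Gpr34 in iB-Tregs (B) over SP-Tregs, at 0.388 on the log2 scale with library totals alone against -0.10. With library totals alone the median of all genes moved to between 0.617 and 0.868 in comparisons of iB-Tregs with mice. Over all alternatives, 33 to 35 genes were called in iB-Tregs (B) against SP-Tregs, 20 to 28 in Ischemia-Tregs against SP-Tregs (27 as reported) and 28 to 34 in iB-Tregs (B) against (A). For iB-Tregs (C) against (B), the 17 calls became 2 in the fit of all 10 libraries, and 6 to 20 with single libraries left out, and the cause was not tested. Fitting the replicate number as a block gave 32, 35 and 17 calls in (B) against (A), (C) against (A) and (C) against (B), the same counts as without it, and same-numbered libraries did not deviate together (correlations 0.015, -0.014 and 0.008), so the numbers do not pair them.

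The summed levels in CPM moved with the scale and with the genes summed, and their order over the 5 groups did not change. In the order (C), (B), (A), Ischemia-Tregs and SP-Tregs they were 24215.3, 27401, 15322.1, 1020.99 and 622.455 with library totals alone, 25093, 28374.9, 15859.1, 1554.55 and 932.214 over protein-coding genes outside mitochondrial and histone genes, and 10485.6, 11444.3, 6373.79, 583.875 and 372.666 without 7 genes that astrocytes or activated T cells can express. Without Apoe and Lyz2, an alternative added after seeing the data, they were 10830.8, 11777.6, 5882.89 and 1242.52 in the first 4 groups. DESeq2 size factors gave 23450.8 in iB-Tregs (B). Scaling to T cell and Treg markers, also added later, gave 34, 35 and 20 calls in (B) against (A), (C) against (A) and (C) against (B). With 2 libraries a group, and with spleen and brain libraries at less than 0.5 of the depth of the co-cultures, low counts in the mice limit the precision of these fold changes.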

Other observations

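A pair of genes outside the phagocyte lists changed more between the co-cultures than most of the 39 genes. Fn1, which encodes fibronectin, had 4947 and 4513 CPM in iB-Tregs (C), 5224 and 5154 CPM in iB-Tregs (B), 349.8 and 362 CPM in iB-Tregs (A), 31.8 and 15.7 CPM in Ischemia-Tregs and 0.80 and 0 CPM in SP-Tregs. It exceeded (A) in (B) by 3.87 ± 0.05 on the log2 scale (edgeR adjusted p = 1.9e-23), while Col1a1 and Col1a2, the fibroblast collagens of the same list, did not pass. Chil3, a chitinase-like protein of monocytes and alternatively activated macrophages, had 153 and 154 CPM in iB-Tregs (C) and 104 and 103 CPM in iB-Tregs (B), against no count in iB-Tregs (A), Ischemia-Tregs or SP-Tregs, and was at least 1276-fold higher in (B) than in (A). The source of either gene was not tested.

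The 11 oligodendrocyte lineage markers summed to 191 to 227 CPM in the co-cultures, 421 and 415 CPM in Ischemia-Tregs and 406 and 433 CPM in SP-Tregs, mostly from Mbp and Cnp, which T cells also express. The 8 neuron markers summed to 12.98 and 13.5 CPM in iB-Tregs (C), 13.4 and 14.03 CPM in iB-Tregs (B), 9.58 and 9.86 CPM in iB-Tregs (A), 15.3 and 20.1 CPM in Ischemia-Tregs and 7.18 and 3.13 CPM in SP-Tregs. Of the 8 endothelial and pericyte markers, Kdr had no placed spleen or brain counts. The other 7 summed to 62.2 to 80.06 CPM in the co-cultures, 78.8 and 91.8 CPM in Ischemia-Tregs and 252 and 224 CPM in SP-Tregs. In iB-Tregs (B) over (A), Gad1 of the neuron list rose by 1.10 ± 0.15 and Flt1 of the endothelial list by 2.16 ± 0.22 on the log2 scale (edgeR adjusted p = 4.2e-06 and 8.7e-08), to 10.7 and 9.62 CPM against 4.95 and 4.54 CPM for Gad1 and to 6.00 and 6.62 CPM against 1.33 and 1.50 CPM for Flt1.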
